A study of Mus musculus with 52 samples.

Results

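The core circadian clock genes are 10 genes of the mouse, Per1, Per2, Per3, Cry1, Cry2, Arntl (the gene of BMAL1), Clock, Nr1d1, Nr1d2 and Dbp, chosen by name and matched to 1 row each of the 46071 genes in the deposited count table. They were followed in 52 RNA libraries of hypothalamus, nucleus accumbens and hippocampus. The animals were 3-month-old male C57BL/6J mice, with no transgene or mutation named, that carried a catheter in the jugular vein. While awake they received saline (basal), a low insulin infusion or a high insulin infusion, taken here as 4 and 12 mU per kg per min, for a clamp of 3 h in which glucose was infused to adjust the blood glucose. The hypothalamus gave 5 basal, 6 low and 5 high libraries, and the nucleus accumbens and the hippocampus gave 6 of each. The labels tie no library to an animal and give no clock time of harvest, so p-values measure the spread between libraries and a level here belongs to an unstated hour.

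In the mammalian clock the proteins CLOCK and BMAL1 bind as a pair to short E-box elements and switch on the Per and Cry genes, whose proteins return to the nucleus and restrain the pair. The nuclear receptors made by Nr1d1 and Nr1d2 (REV-ERB alpha and beta) repress Arntl, and the transcription factor DBP, itself an output of the pair, acts at D-box elements. The suprachiasmatic nucleus of the hypothalamus is the master pacemaker, and most other brain regions run clocks of their own. Insulin given with food is known to shift clock gene expression in peripheral tissues.

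The activators Arntl and Clock lie at chr7:113207465-113314126 (plus strand) and chr5:76209868-76304792 (minus strand) of GRCm38, in the GENCODE M21 annotation. Per1 lies at chr11:69095217-69109960 (plus), Per2 at chr1:91415982-91459324 (minus), Per3 at chr4:151003652-151044665 (minus), Cry1 at chr10:85131700-85185064 (minus) and Cry2 at chr2:92403646-92434043 (minus). Nr1d1 lies at chr11:98767932-98775333 (minus), Nr1d2 at chr14:18204054-18239127 (minus) and Dbp at chr7:45705088-45710203 (plus). Nr1d1 overlaps Thra, Dbp overlaps Sphk2, and Arntl and Cry2 each overlap a noncoding gene, all on the opposite strand, while Per3 overlaps Camta1, and Clock a pseudogene and an unclassified transcript, on the same strand. The libraries were made with a directional kit, but whether the counting used strand is not given in the sources used here. The counts of Nr1d1, Dbp, Arntl and Cry2 may therefore hold, or lack, reads shared with their partners. For Per3 and Clock the partners lie on the same strand, so strand could not separate shared reads under any setting. Each value covers all exons of a gene.

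The 250 bases before the annotated start were read from RefSeq (GRCm38.p6) for 9 members, in 13 windows, since some have several starts; Per2 is named only. Both strands were searched for CACGTG (the E-box), TTATGNAA (a D-box), AGGTCA (the core of the sites that REV-ERB and ROR receptors use) and TGACGTCA (a cyclic AMP response element). The E-box was found upstream of 2 members, Per1 and Cry1, in 2 of the 13 windows, against 6.02% of all 32851 windows of this length. The D-box was found upstream of 2, Per1 and Per3, also in 2 of the 13 windows, against 3.07%. The receptor element was found upstream of 3, Per1, Nr1d2 and Clock, in 3 of the 13 windows (14.0% of all windows), and the cyclic AMP response element upstream of 0 (1.55%). The windows with an E-box or D-box are shown because they hold the elements through which the loop is known to act; capitals mark the matches. In Per1 the window (chr11:69098699-69098948, plus strand) precedes a RefSeq start that lies inside the longer GENCODE gene, and the matches are, from the left, the E-box at -166, the receptor element read on the other strand at -137 and the D-box at -24, counted to the first base of the match with -1 just before the start. Per3 (chr4:151044666-151044915, minus strand) has D-boxes at -205 and -158, and Cry1 (chr10:85185055-85185304, minus strand) has its E-box at -60.
Per1: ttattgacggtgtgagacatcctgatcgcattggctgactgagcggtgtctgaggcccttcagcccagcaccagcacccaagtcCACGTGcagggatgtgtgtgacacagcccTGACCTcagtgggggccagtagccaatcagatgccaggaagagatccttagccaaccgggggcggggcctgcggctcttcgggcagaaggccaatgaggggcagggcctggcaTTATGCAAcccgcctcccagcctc
Per3: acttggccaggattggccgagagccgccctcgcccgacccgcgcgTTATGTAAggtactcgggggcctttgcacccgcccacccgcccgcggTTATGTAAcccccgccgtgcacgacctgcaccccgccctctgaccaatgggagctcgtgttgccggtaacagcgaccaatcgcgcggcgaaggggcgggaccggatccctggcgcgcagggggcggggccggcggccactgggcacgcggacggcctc
Cry1: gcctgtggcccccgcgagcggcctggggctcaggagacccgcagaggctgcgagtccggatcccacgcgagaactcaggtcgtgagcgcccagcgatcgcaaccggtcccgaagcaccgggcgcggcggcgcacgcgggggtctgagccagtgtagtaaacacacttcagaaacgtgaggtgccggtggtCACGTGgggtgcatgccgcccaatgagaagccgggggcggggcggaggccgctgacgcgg

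Libraries held 2453412 to 8279612 counted reads (median 4654642), and each of the 10 genes passed the filter on low counts in every region. Levels below are read counts scaled to library size (CPM). Sums of hypothalamic, striatal and hippocampal markers followed the labelled regions. The 5 hypothalamic peptides summed to 44.3 to 1620 CPM in hypothalamus, 0.582 to 43.7 in nucleus accumbens and 0.24 to 3.01 in hippocampus. The 6 striatal neuron markers summed to 637 to 1600 CPM in nucleus accumbens, 80.1 to 220 in hypothalamus and 32.9 to 140 in hippocampus, and the 5 hippocampal markers to 299 to 930 CPM in hippocampus. Some other lists spread widely between libraries of a region. The 4 cortical neuron markers summed to 99.9 to 891 CPM in nucleus accumbens (median 142) and 789 to 1950 in hippocampus. In hippocampus 5 choroid plexus markers summed to 60.4 to 6170 CPM, with medians of 126, 2320 and 591 in basal, low and high libraries. The 4 oligodendrocyte markers there summed to 2610 to 4660 CPM in basal, 5430 to 17000 in low and 4980 to 7030 in high libraries. The basal range thus lay below both others, while 0 of these 4 genes were called for low or high insulin. The part of such tissue in the contrasts was not tested. The 6 markers of the suprachiasmatic nucleus summed to 13.8 to 66.7 CPM in hypothalamus, 13 to 59.8 CPM in nucleus accumbens and 13 to 40.5 CPM in hippocampus, and the single genes differed in direction. Of the 5 that could be tested 4 were higher in hypothalamus than in hippocampus, among them Six6 (log2 fold change 6.17), Prok2 (2.39) and Vipr2 (2.31), while Vip was lower (-2.15). Against nucleus accumbens 3 were higher in hypothalamus, with Six6 at 4.49, and 2 were lower, Prok2 (-1.9) and Vip (-1.06). Vip, the peptide of its core neurons, averaged 2.47, 2.71 and 4.62 CPM in basal, low and high libraries. The hypothalamic values are those of the hypothalamus as dissected. A peptide gene was under 1 CPM in 0 basal, 3 low and 2 high hypothalamic libraries. In bulk tissue, fewer cells of a type and less RNA per cell cannot be told apart. In 10 of the 52 libraries GC-rich transcripts were over-represented against the region's mean (a GC lean, the Spearman correlation across genes of deviation and transcript GC content, above 0.4), and these included 3 of 5 basal, 0 of 6 low and 0 of 5 high hypothalamic libraries. Genes are not independent replicates, so the lean is a description of a library.

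The 10 genes were expressed at readily counted levels in all 3 regions, and their order was much alike. Per kilobase of exon, Nr1d2 was the highest member in hypothalamus (28.9 ± 7.51 CPM per kb, SD, n = 16) and nucleus accumbens (32.3 ± 6.73, n = 18), with Cry2 next (22.5 ± 1.98 and 29.8 ± 3.89). In hippocampus Cry2 was first (30.6 ± 3.63 CPM per kb, n = 18) and Nr1d2 next (24.8 ± 6.12). At the other end stood Arntl with 3.59 ± 0.447, 4.87 ± 0.679 and 5.52 ± 0.842 CPM per kb in hypothalamus, nucleus accumbens and hippocampus, and Cry1 with 4.62 ± 0.96, 6.33 ± 0.881 and 3.36 ± 0.726. Neighbours such as Clock and Per2 (7.4 ± 1.42 and 6.46 ± 1.25 CPM per kb in hypothalamus) lay within each other's spread. The scale divides by the length of all annotated exons, so isoforms shorter than this are understated.

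**Figure D1:**
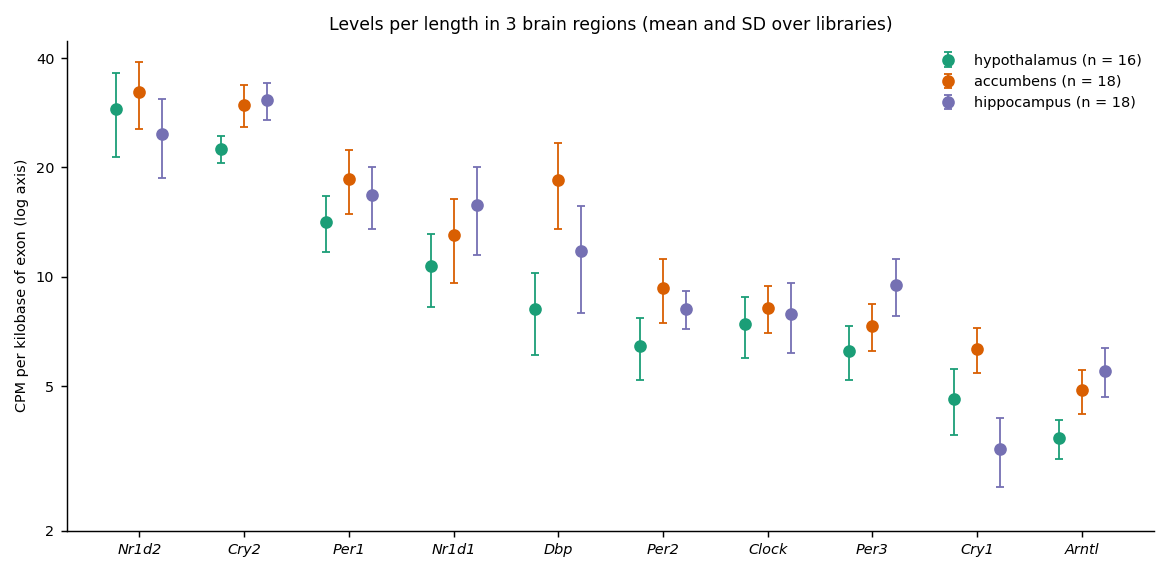
Mean level of each core clock gene in hypothalamus, nucleus accumbens and hippocampus, in CPM per kilobase of exon on a log axis, with the SD over 16, 18 and 18 libraries as bars. Nr1d2 and Cry2 stand highest and Arntl and Cry1 lowest, and hypothalamus lies below nucleus accumbens for all 10 genes.

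The regions differed most in Dbp and Cry1. Dbp, the D-box activator, ran from 17.1 to 38.7 CPM (median 23.8) in hypothalamus, 28.2 to 96.5 (median 54.4) in nucleus accumbens and 18.9 to 60.9 (median 34) in hippocampus. It was thus highest in nucleus accumbens, and the ranges overlapped. Dbp was lower in hypothalamus than in nucleus accumbens (log2 fold change -1.17, SE 0.13, edgeR quasi-likelihood adjusted p = 2.02e-10) and higher in nucleus accumbens than in hippocampus (0.65, SE 0.12, adjusted p = 1.7e-05). Cry1, a repressor of the loop, ran from 9.5 to 21.6 CPM (median 15.2) in hypothalamus, 15.7 to 26.7 (median 21.9) in nucleus accumbens and 8.12 to 17.1 (median 10.7) in hippocampus. Its order was nucleus accumbens, hypothalamus, hippocampus, each step past the threshold: 0.89 (SE 0.09, adjusted p = 1.74e-11) for nucleus accumbens minus hippocampus and 0.44 (SE 0.1, adjusted p = 0.000133) for hypothalamus minus hippocampus. Cry1 was the 1 member higher in hypothalamus than in hippocampus by the test, joined by Nr1d2 (0.17, adjusted p = 0.0303) when the GC lean was held constant. The lean is measured against each region's own mean, so that fit cannot remove a GC difference between regions.

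Between hypothalamus and hippocampus 8 of the 10 members differed at adjusted p under 0.05, 7 lower and 1 higher, where 59.4% of all 14985 genes tested differed, 29.6% lower and 29.8% higher. The members' median log2 difference was -0.41, against 0.01 over all genes. Arntl had the lowest log2 value, with 27 ± 3.36 CPM in hypothalamus (n = 16) and 41.5 ± 6.33 in hippocampus (n = 18; -0.64, SE 0.08). Per3, a period gene, followed with 60.1 ± 10.2 CPM in hypothalamus and 91.2 ± 16.4 in hippocampus (-0.61, SE 0.08). The period genes Per1 and Per2, and Nr1d1, Dbp and Cry2, had log2 differences of -0.25, -0.36, -0.57, -0.52 and -0.46, while Clock (-0.13) and Nr1d2 (0.17) did not pass the test. With saline libraries alone the values of Per1, Nr1d1 and Dbp were -0.01, -0.28 and -0.09 and did not pass, and Clock passed at -0.39 (adjusted p = 0.0275); 3 of the 5 hypothalamic saline libraries had the GC lean.

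Between hypothalamus and nucleus accumbens 7 members were lower and 0 higher, where 41.9% of all genes differed, 19.9% of them lower and 22.0% higher as a share of all tested. All 10 had a log2 difference below 0 (median -0.4, all genes 0.02). Per2 averaged 37.9 ± 7.33 CPM in hypothalamus and 54.7 ± 11 in nucleus accumbens (-0.53, SE 0.09, adjusted p = 1.63e-06). Arntl (-0.45), Cry1 (-0.45), Cry2 (-0.41), Per1 (-0.39) and Per3 (-0.23) were the others beside Dbp. Clock (-0.18, adjusted p = 0.0924), Nr1d1 (-0.27, 0.0662) and Nr1d2 (-0.2, 0.189) did not pass. With the GC lean as a covariate these 3 passed as well, with -0.21, -0.24 and -0.24. Since the lean is set against each region's own mean, this does not adjust for a GC difference between regions. With saline libraries alone Per1 did not pass (-0.08) and Clock did (-0.47).

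Between nucleus accumbens and hippocampus 6 members differed, where 48.0% of all genes did, 23.8% higher and 24.2% lower; 3 were higher, Cry1, Dbp and Nr1d2, and 3 lower, Per3, Nr1d1 and Arntl. Nr1d2 averaged 175 ± 36.4 CPM in nucleus accumbens and 134 ± 33.1 in hippocampus (0.37, SE 0.12, adjusted p = 0.00633), while its paralogue Nr1d1 averaged 39.9 ± 10.3 and 48.6 ± 13.3 in the same order (-0.3, SE 0.12, adjusted p = 0.0269). These receptors, both repressors of Arntl, thus differed in opposite directions. Per3 was lower, with -0.38 (SE 0.08, adjusted p = 4.56e-05) and Arntl with -0.19 (SE 0.07, adjusted p = 0.0249). Cry2, with 189 ± 24.6 CPM in nucleus accumbens and 193 ± 22.9 in hippocampus, gave -0.05 (SE 0.06). With saline libraries alone Arntl, Nr1d1 and Nr1d2 did not pass (-0.23, -0.21 and 0.4), which left 3 members.

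**Figure D2:**
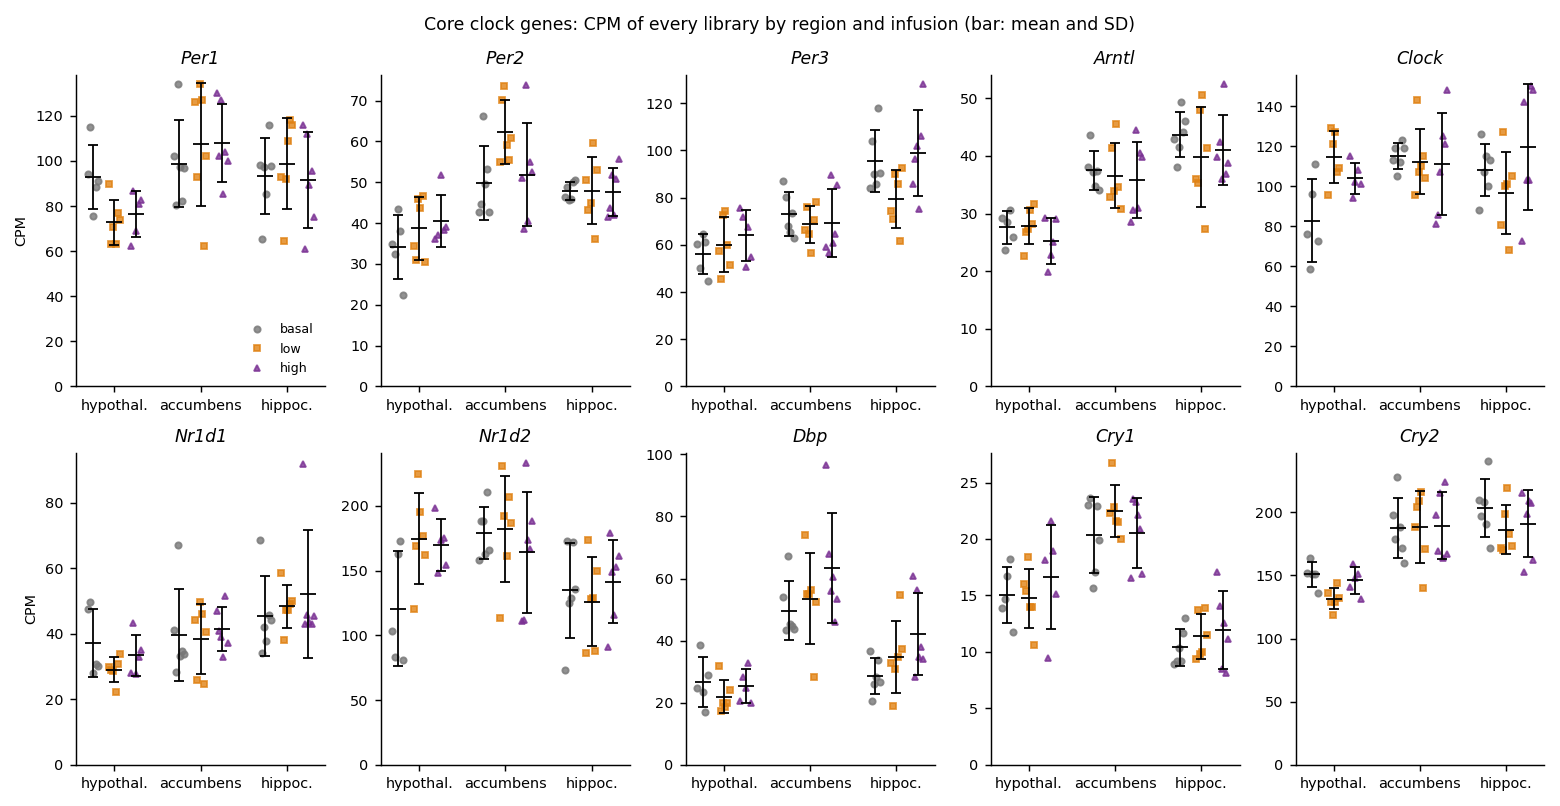
CPM of each core clock gene in every library, by region and infusion (basal is saline), with the mean and SD of each group. Dbp and Cry1 are highest in nucleus accumbens, with ranges that overlap those of the other regions, and the infusion groups of a region overlap for all 10 genes.

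Of 21 further clock genes (loop factors, relatives of DBP, kinases and ubiquitin ligases of the clock proteins, and output genes) 15 differed between hypothalamus and hippocampus, 6 higher and 9 lower, where 59.4% of all genes differed. Npas2, which can take the place of Clock as partner of BMAL1, averaged 53.6 ± 13.7 CPM in nucleus accumbens and 16.4 ± 4.07 in hippocampus (1.69, SE 0.12, adjusted p = 6.97e-18), and 11.4 ± 1.86 CPM in hypothalamus. Clock itself gave 0.05 between nucleus accumbens and hippocampus (SE 0.09). Bhlhe40, a repressor of E-box transcription, was lower in hypothalamus (51.9 ± 4.36 CPM) than in hippocampus (130 ± 21.5; -1.35, SE 0.08). Among the relatives of DBP, Tef (-0.57) and Hlf (-0.98) were lower in hypothalamus than in hippocampus. Usp2, a deubiquitinase gene used as a clock output, was likewise lower there (57.7 ± 7.44 CPM in hypothalamus, 131 ± 27.2 in hippocampus; -1.21, SE 0.1). Fbxl21, a ligase gene for cryptochromes, was higher in hypothalamus than in hippocampus (1.65, SE 0.13, adjusted p = 4.06e-16), and Rorb, the gene of an activating receptor at REV-ERB sites, was higher too (39.1 ± 10.1 CPM in hypothalamus, 18.3 ± 7.08 in hippocampus, adjusted p = 1.06e-08).

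Insulin was tested within each region. In nucleus accumbens 0 of the 10 members passed for low or high insulin against saline, as did 0% of all 13769 genes. The edgeR test gave 196 and 326 genes at an unadjusted p under 0.05, and both DESeq2 and limma-voom called 0. Member log2 fold changes lay between -0.09 and 0.32 for low insulin and -0.12 and 0.35 for high insulin, with SEs of 0.12 to 0.2. Per2 gave the only unadjusted p under 0.05, with a lowest, median and highest of 54.9, 60 and 73.6 CPM in low libraries and 42.7, 47.1 and 66.3 in basal libraries (0.32, SE 0.15, adjusted p = 1). These ranges overlapped, and high libraries ran from 38.5 to 73.8 CPM with a median of 51.7.

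In hippocampus 0 members passed either, against 0% of all 13515 genes; 817 and 353 genes had an unadjusted p under 0.05 for low and high insulin, limma-voom called 0 in both, and DESeq2 called 38 for low and 0 for high insulin, none of them a member. Log2 fold changes of members lay between -0.26 and 0.29 for low and -0.08 and 0.57 for high insulin, with SEs of 0.11 to 0.23. Dbp stood at the upper end: its high libraries held 60.9, 28.4, 56.2, 34.8, 38.1 and 34.2 CPM and its basal libraries 36.8, 20.7, 26, 28.2, 33.8 and 26.7. Both groups overlapped, and the log2 fold change of 0.57 (SE 0.23) had an unadjusted p of 0.0207 and an adjusted p of 1. Its low libraries had a median of 33.7 CPM. High against low insulin called 0 members and 0% of genes in every region, with 199, 292 and 384 genes at an unadjusted p under 0.05 in hypothalamus, nucleus accumbens and hippocampus. DESeq2 and limma-voom called 0 there too. With SEs of up to 0.23, small to modest changes of any member could go undetected here. In simulated counts for low insulin against saline, over genes of all levels, the fit recovered 10% of 1.4-fold and 65% of 2-fold changes in hippocampus. In nucleus accumbens it recovered 17.5% and 71.2%, and in hypothalamus 11.2% and 72.5%.

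**Figure D3:**
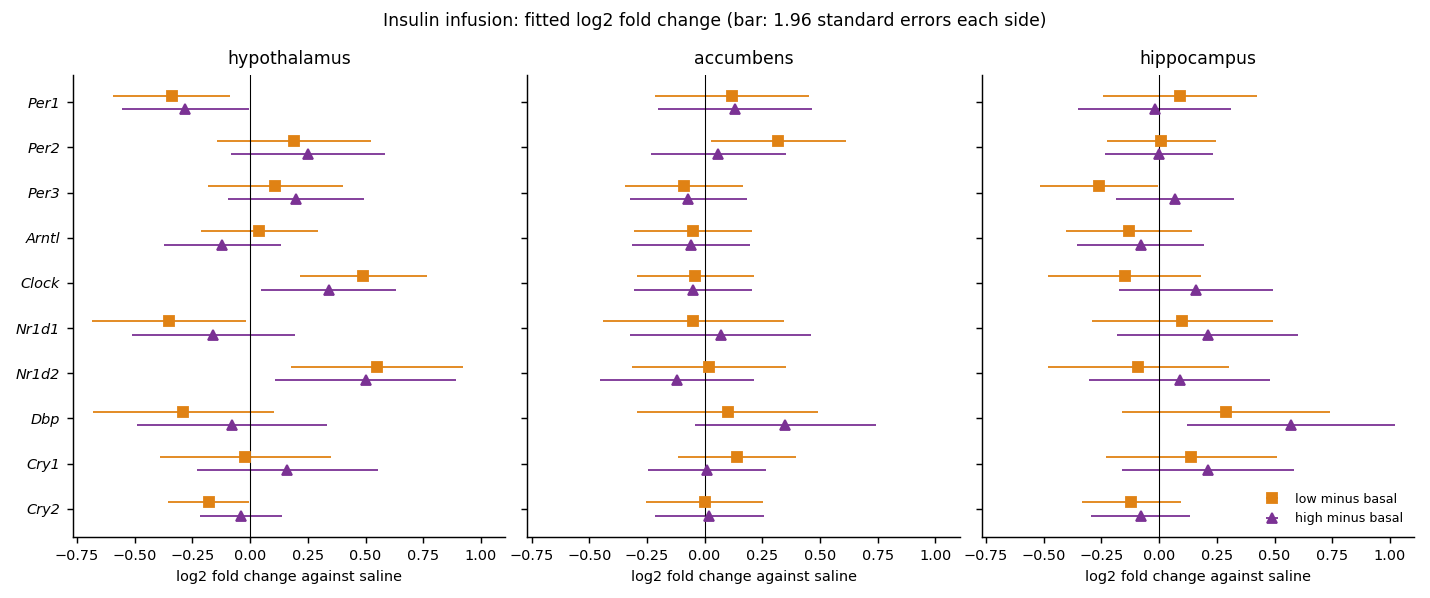
Fitted log2 fold changes of the 10 genes for low and high insulin against saline in hypothalamus, nucleus accumbens and hippocampus, with bars of the approximate 95% interval (standard errors as in the figure title). In hypothalamus Clock and Nr1d2 lie above 0 and Per1 below it under both doses, and of all values shown 1, Clock under low insulin, passed the adjusted threshold.

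In hypothalamus Clock, the gene of BMAL1's partner, was the 1 member that passed for low insulin (1 higher, 0 lower), where 5.38% of all 14139 genes did, 3.59% higher and 1.78% lower. It held 95.5, 129, 121, 127, 107 and 109 CPM in low libraries and 76.1, 58.5, 96, 111 and 72.6 CPM in basal libraries. Its 3 lowest values were the basal libraries with the GC lean, and the other 2 lay within the range of the low libraries, so the groups overlapped. The log2 fold change was 0.49 (SE 0.14, edgeR adjusted p = 0.0478). When each of the 16 libraries was left out in turn it passed in 3 fits (without basal replicate 3, basal replicate 4 or low replicate 1), with values of 0.38 to 0.62. Without the GC-leaning libraries, which left 2 basal libraries, it was 0.16 (adjusted p = 0.837), and a fit that held the lean constant gave 0.25 (adjusted p = 0.426); the part of the lean in the difference was not tested further. With tag range or tag run as a term, which are unevenly spread over the infusion groups in hypothalamus, it was 0.39 (adjusted p = 0.151) or 0.35 (adjusted p = 0.199), and the call was lost. Within the third range of tag numbers, 3 low and 3 basal libraries averaged 115 and 93.2 CPM, a log2 ratio of 0.3.

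Nr1d2 went the same way without passing. Low libraries held 120, 169, 225, 195, 177 and 162 CPM and basal libraries 103, 83.3, 163, 173 and 81 CPM (0.55, SE 0.19, adjusted p = 0.0863); the value without the GC-leaning libraries was 0.06. Per1, a period gene that also answers to light and glucocorticoids, held 89.7, 63.1, 70.9, 63.1, 76.8 and 73.6 CPM in low libraries and 94.1, 115, 75.4, 88.5 and 91.1 CPM in basal libraries. Basal libraries were mostly above the low ones, with overlap, and the log2 fold change was -0.34 (SE 0.13, adjusted p = 0.107), or -0.16 without the GC-leaning libraries. Nr1d1 gave -0.35 (SE 0.17, adjusted p = 0.184). The other 6 members lay between -0.29 and 0.19. The median over the 10 was 0.01, against -0.02 over all genes.

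High insulin in hypothalamus called 0 members, where 0.184% of all genes were called, 0.177% higher and 0.00707% lower; DESeq2 and limma-voom called 0 members too, and 2 members, Clock and Nr1d2, had an unadjusted p under 0.05, as did 3406 of all 14139 genes. Clock held 115, 94.4, 102, 108 and 101 CPM in high libraries (log2 fold change 0.34, SE 0.15, adjusted p = 0.175), and Nr1d2 held 198, 148, 174, 175 and 154 CPM (0.5, SE 0.2, adjusted p = 0.165). The same basal libraries served as reference for low and high insulin, so these are not separate observations. Of the 21 further clock genes 1 passed for low insulin, where 5.38% of all genes did, and 0 passed for high insulin. It was Rora, the gene of the activating receptor ROR alpha, with 116 ± 41.7 CPM in low (n = 6) and 63.9 ± 16.2 in basal libraries (n = 5). Its log2 fold change was 0.88 (SE 0.22, edgeR adjusted p = 0.0332), and the ranges of 77.7 to 188 and 42 to 82.3 CPM overlapped. Its values under the alternative fits are not given here, and 3 of the 5 basal libraries had the GC lean. No member's response to insulin was shown to differ between regions: the region-by-infusion term in edgeR called 0 members and 0% of all 14985 genes, with adjusted p of 0.414 to 0.948 for the members. At an unadjusted p under 0.05 it gave 1681 genes and 1 member, Clock. DESeq2 called 3 genes and limma-voom 0, and neither called a member.

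**Figure D4:**
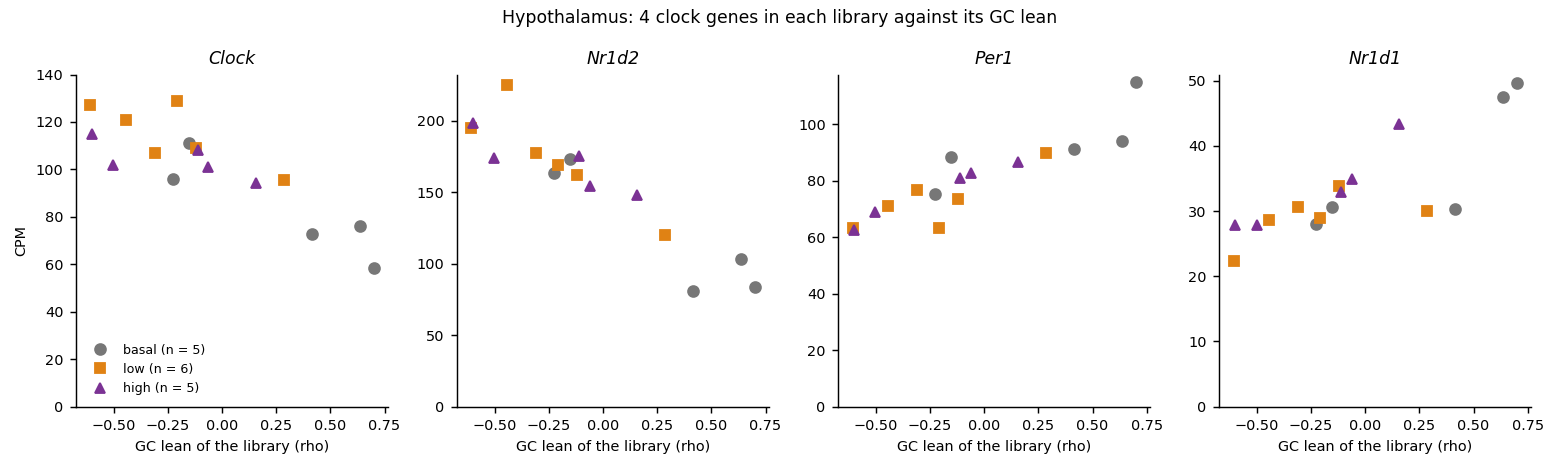
CPM of Clock, Nr1d2, Per1 and Nr1d1 in each hypothalamic library against the GC lean of that library, by infusion. Along the lean Clock and Nr1d2 decline and Per1 and Nr1d1 climb, and the 3 basal libraries above 0.4 stand at the end of each panel.

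Some members varied between libraries of a region along with the GC lean of the library. After removal of infusion means, Clock and Nr1d2, whose transcripts are GC-poor (40.9% and 41.8% GC), fell with the GC lean in all 3 regions, with Pearson's r of -0.869 to -0.749 and -0.866 to -0.752. Dbp, Per1 and Nr1d1, at 61.6%, 59.4% and 56.8% GC, rose with it, with r of 0.717 to 0.855, 0.639 to 0.854 and 0.615 to 0.877. All 15 of these relations passed by permutation (n = 16, 18 and 18 libraries; adjusted p between 0.0003 and 0.021 over the 30 relations tested). Spearman's rho was -0.926 to -0.725 for Clock and Nr1d2 and 0.679 to 0.874 for the other 3 (permutation adjusted p 0.00015 to 0.0215). Without the 2 libraries farthest from the median lean r was -0.828 to -0.717 and 0.574 to 0.869 in these sets. Arntl, Cry1, Per3, Per2 and Cry2, at 48.2% to 55.6% GC, gave r between -0.533 and 0.498 and did not pass. Per2 and Cry2, close in GC (54.3% and 55.6%), had opposite signs, with r of -0.523 to -0.139 and 0.312 to 0.498. An r of at least 0.615 in size was shared by 34.8%, 22.0% and 42.1% of all genes tested in hypothalamus, nucleus accumbens and hippocampus, so it does not mark clock genes, and since the lean is built from all genes, its direction for a GC-rich gene is partly given. Within the third range of tag numbers alone (9 libraries a region, infusion means kept) r was -0.918 to -0.413 for Clock, -0.863 to -0.69 for Nr1d2, 0.66 to 0.862 for Per1, 0.475 to 0.771 for Dbp and 0.507 to 0.627 for Nr1d1. Per3 and Per2 reached similar sizes there, with -0.713 to -0.582 and -0.876 to -0.196. Arntl gave -0.558 to -0.014, Cry1 -0.406 to 0.525 and Cry2 -0.00918 to 0.503. In the second range (6 libraries each) Per3, Per2 and Arntl had -0.689, -0.0913 and -0.781 in nucleus accumbens but 0.318, 0.588 and 0.369 in hippocampus. Clock, Nr1d2, Per1, Dbp and Nr1d1 kept their signs in both.

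**Figure D5:**
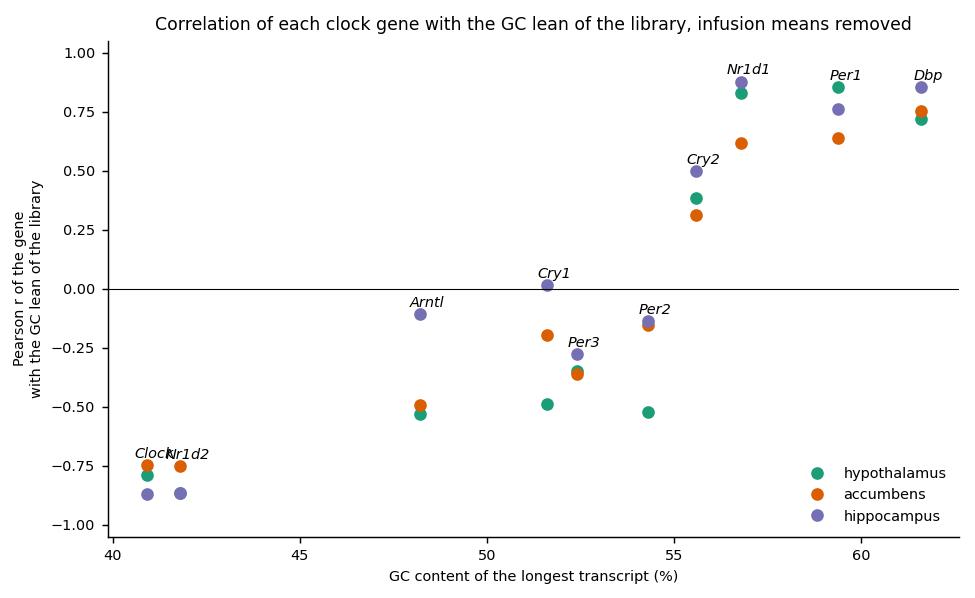
Pearson's r of each core clock gene with the GC lean of the library, infusion means removed, against the GC content of the longest transcript in percent, for 3 regions. Clock and Nr1d2 lie below -0.7 and Dbp, Per1 and Nr1d1 above 0.6 in each region.

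The range of the tag number in the library titles, whose meaning the labels do not give, separated the same pair of genes in hippocampus. Nr1d1 averaged 73 ± 17 CPM in the first range (n = 3), 41.7 ± 4.89 in the second (n = 6) and 45.1 ± 3.68 in the third (n = 9), with an edgeR adjusted p of 0.00132. Nr1d2 averaged 83.4 ± 9.05, 155 ± 24.2 and 137 ± 25.5 CPM in that order (adjusted p = 0.00655). The 3 libraries of the first range all had the GC lean, and 0 members were called in the fit that held the lean constant. Tag range called 2 members in hippocampus, where 25.4% of all genes were called, 0 in nucleus accumbens, where 3.35% were, and 0 in hypothalamus, where 0.00707% were. At an unadjusted p under 0.05 edgeR gave 2 members (Nr1d2 and Dbp) and 3340 of all 13769 genes in nucleus accumbens, and 5 members (Per1, Clock, Nr1d1, Nr1d2 and Dbp) and 2042 of all 14139 genes in hypothalamus. DESeq2 called 1 member and 1392 genes in nucleus accumbens and 0 members and 441 genes in hypothalamus. Each hippocampal and accumbal infusion group held 1, 2 and 3 libraries of the 3 ranges, whereas in hypothalamus the first range held 2 basal, 1 low and 0 high libraries.

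Pairs of genes that the loop links were followed from library to library, infusion means removed, in a family of 24 relations (8 pairs in 3 regions). Arntl and Dbp, which peak at opposite phases of the cycle in most tissues, had r = -0.684 in hypothalamus (rho -0.674, n = 16, permutation adjusted p = 0.0268; rho adjusted p = 0.0674), -0.218 in nucleus accumbens and -0.212 in hippocampus. Arntl and Clock had r = 0.584 in hypothalamus (rho 0.532, permutation adjusted p = 0.0268; rho adjusted p = 0.0955). Nr1d1 and Nr1d2, which are known to cycle almost together, had r = -0.793 in hippocampus (rho -0.562, n = 18, permutation adjusted p = 0.0206; rho adjusted p = 0.0752). Per1 rose with Fkbp5, a glucocorticoid-induced gene, in hypothalamus (r = 0.69), nucleus accumbens (0.71) and hippocampus (0.722), each with a permutation adjusted p of 0.0268 or 0.0206 (rho 0.713 to 0.732, rho adjusted p = 0.0247). Without the 2 libraries farthest from the median of the first gene these r were -0.608, 0.535 and -0.573, and 0.626, 0.597 and 0.636.

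With tag range removed as well as infusion, 5 of these 6 calls were lost: the adjusted p was 0.106 for Arntl and Dbp, 0.149 for Arntl and Clock, 0.488 for Nr1d1 and Nr1d2 (r = -0.315), and 0.0835 and 0.104 for Per1 and Fkbp5 in hypothalamus and nucleus accumbens. Per1 and Fkbp5 in hippocampus still passed (r = 0.655, permutation adjusted p = 0.0288). Without the GC-leaning libraries Per1 and Fkbp5 passed in all 3 regions, with r of 0.757, 0.768 and 0.767 in hypothalamus, nucleus accumbens and hippocampus (n = 13, 15 and 14, permutation adjusted p = 0.0425 each; by rho 0.156, 0.0348 and 0.108), and the other 3 calls were lost. Removal of the GC lean, an adjustment added after these values were seen, ended all 6 of these calls: r was then -0.511 for Arntl and Dbp, 0.314 for Arntl and Clock, -0.139 for Nr1d1 and Nr1d2, and 0.226, 0.516 and 0.312 for Per1 and Fkbp5 in hypothalamus, nucleus accumbens and hippocampus. Per1 and Per2 in nucleus accumbens, with r = 0.499 at first (rho 0.333, n = 18, permutation adjusted p = 0.0878), then had r = 0.785 (rho 0.756, permutation adjusted p = 0.0048). That relation also passed with infusion and tag range removed (r = 0.533) and without the GC-leaning libraries (r = 0.614), though not by rho (adjusted p = 0.0662 and 0.293). In hypothalamus and hippocampus the same pair had r of 0.479 and 0.3 with the lean removed and did not pass. Where tag range or the lean was removed, the permutations still ran within infusion alone, so those p-values are approximate.

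Hippocampal and accumbal libraries with neighbouring tag numbers formed 15 pairs, and 0 of the 10 members passed for a shared deviation. Cry2 (r = 0.6), Clock (0.573) and Per1 (0.569) had the highest values, with permutation adjusted p of 0.189, 0.231 and 0.189 (rho 0.582, 0.371 and 0.593), and Arntl the lowest (-0.333). By rho the highest was Nr1d1 (0.686, permutation adjusted p = 0.0964). Among all 13116 genes the median r was 0.341, and 34.3% lay above the members' median of 0.463. Without the first run of tag numbers the members' median was 0.216 and that of all genes 0.218. With the GC lean removed instead, over all 15 pairs, Nr1d1 went from r = 0.459 to -0.292 (rho -0.225) and Dbp from 0.308 to -0.492. Cry2 then had r = 0.553, and no member passed. The genes outside the set whose library-to-library pattern was most like Dbp, by the lowest of the 3 regional Spearman correlations (16, 18 and 18 libraries, 11052 genes), were Ogfod2 (lowest rho 0.81), Rela (0.79), Tnk2 (0.78), Ppfia3 (0.77) and Fbxl6 (0.77). Per1 was the member nearest to Dbp, with a lowest rho of 0.67, at rank 114, and Clock the farthest, with rho between -0.79 and -0.7. For Arntl the genes most alike outside the set were Dusp6 (0.54), Tbc1d14 (0.51), Npepps (0.49), Herpud2 (0.48) and Tmem132b (0.48). No member came closer to Arntl than rank 1884, held by Per2. Only infusion means were removed for these ranks, not the GC lean. Dbp and Per1 rose with the lean (r of 0.717 to 0.855 and 0.639 to 0.854) and Clock fell with it (-0.869 to -0.749). The part of the lean in the ranks was not tested.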

How the data were processed

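The authors deposited raw read counts per gene for 52 libraries of mouse brain; per the submitters' processing notes STAR and featureCounts were used with GRCm38.p4, with versions and strand setting not given in the sources used here. Replicates were numbered in accession order and pair nothing. GENCODE M21 named 45229 of the 46071 genes; 842 without a name held 0.08% of counts. No pair of libraries within a group agreed within counting noise (chi-square per gene at least 3.46 over 125 pairs). CPM used TMM scaling over all 52 libraries. Fits used edgeR 4.0.16 in R 4.3.3 (filterByExpr, TMM, robust quasi-likelihood test) within a region for infusion and tag range, and over 9 groups for region contrasts, each infusion weighted equally, and for the interaction. Benjamini-Hochberg p-values run over all genes tested, with a threshold of 0.05. Log CPM used a prior count of 2; correlations used 100000 permutations within infusion, so 1e-05 is the smallest p. Alternatives included DESeq2 1.42.0, limma 3.58.1 (voom) and sva 3.50.0. The fits and the permutation test were tested on simulated data. Library totals limit precision, and intervals from them would cover counting error only. All 10 members are described in each comparison; of each other list up to 4 called genes were named by smallest adjusted p, with the 5 genes most like Dbp and Arntl among genes of at least 5 CPM. The members and lists were chosen with earlier results of these data known.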

Additional observations from a re-analysis of the deposited data

Results flagged for a closer look

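4 values stood apart within their group of 5 or 6 libraries, by the gap to the nearest library over the whole range; 90 groups were tested, and chance flags about 1 in 20. Per2 reached 51.8 CPM in high replicate 3 of the hypothalamus, against 36.2 to 39.1 CPM in the other 4 high libraries; without it the log2 fold change for high insulin was 0.15 instead of 0.25. Nr1d1 reached 91.8 CPM in high replicate 1 of the hippocampus, where the other 5 held 42.9 to 45.6 CPM, and without it its log2 fold change for high insulin was -0.01 instead of 0.21. Nr1d1 also stood apart at 68.5 CPM in basal replicate 1 of the hippocampus (others 34 to 45.8 CPM). Both of these hippocampal libraries belong to the first range of tag numbers and lean to GC-rich transcripts (rho 0.608 and 0.562). The fourth was Nr1d1 at 67.2 CPM in basal replicate 3 of the nucleus accumbens (others 28.4 to 41.2 CPM), a library with a lean of 0.151, and without it the log2 fold changes were 0.17 for low and 0.29 for high insulin instead of -0.05 and 0.07. The part of these libraries' GC lean in the values was not tested. The test of the difference between regions in the response to insulin called 0 members.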

How the results depend on the processing

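The call of Clock for low insulin in hypothalamus (1 member) was lost, leaving 0 members, with no filter on low counts, tag range or tag run as a term, log total count or GC lean as a covariate, 1 surrogate variable, the 2 groups alone, without the GC-leaning libraries, without the libraries lacking a peptide and with all 52 libraries in 1 fit; it held with DESeq2, its size factors and limma-voom, and a threshold of 0.1 gave 2 members. Leaving out 1 library gave 0 to 3 members there and 0 to 2 for high insulin. Clock's log2 fold change stayed between 0.16 and 0.62 over 29 alternatives, and 6 of these called it. The cause was not tested. Leaving out basal replicate 4 gave 2 members for high insulin, Clock (0.47) and Nr1d2 (0.67). Leaving out basal replicate 3 or low replicate 1 made 3 members pass for low insulin, Clock, Nr1d2 and Per1, and leaving out basal replicate 4 made 2 pass. For low insulin DESeq2 and limma-voom called 1690 and 1056 of all 14139 genes. For the other alternative fits, here and below, the share of all genes called is not given. Member counts from those fits are therefore no result about clock genes.

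Region counts were kept within 1.5 times in all alternatives but 1, saline libraries only, which left 3 members for nucleus accumbens minus hippocampus. For tag range, no filter called 1 member in hypothalamus and 2 in nucleus accumbens, a threshold of 0.1 called 2 and DESeq2 1 in nucleus accumbens, and the GC lean as a covariate called 0 in hippocampus. Pairs that passed within a region numbered 6. With tag range removed 2 passed, 1 of those 6 and Per1 with Per2 in nucleus accumbens; with the GC lean removed 1 passed, that same added pair and none of the 6. No call changed direction under any alternative run. The interaction called 0 members under every alternative run. No paired analysis was possible because the replicate numbers only follow accession order and the labels tie no library to an animal; tag run, whose meaning they do not give, served as a term and to match libraries of hippocampus and nucleus accumbens, not as a pairing by design. Depth limits Cry1 most, with the lowest levels of the set.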
